A study of Mus musculus with 24 samples.

Results

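Dissected mouse retina organoids turned in a rotating-wall bioreactor (RWB) were compared with dissected organoids left in static suspension culture (SSCd) at day 22 (D22) of differentiation. The comparison takes the 3 RWB and the 3 SSCd libraries whose titles carry that day, 6 of the 24 libraries in the series, and every gene of the deposited gene table. Of 33846 genes, 16792 passed a filter on low counts and were tested. Organoids of both groups were grown from mouse embryonic stem cells (ESCs) in low-adhesion wells with Matrigel, and the optic cup, the neural retina part, was cut out at D10. From then on both groups received DMEM/F12 with N2 supplement, taurine, 9-cis retinal and insulin-like growth factor 1, and from D18 also fetal bovine serum, B27 without vitamin A and non-essential amino acids. The groups therefore share day, dissection and medium and differ in the vessel by label. A line from Nrl-GFP transgenic mice and the clone R1 were used as ESCs, both called wild type in the labels, which do not say which library came from which. The series' design text counts repeated experiments as biological replicates, and no label says what libraries with the same replicate number have in common.

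Rods and cones detect light with closely related but separate sets of proteins: each has its own opsin, transducin, phosphodiesterase, cyclic-nucleotide-gated channel and cation exchanger. Cones are born early in mouse retinal development, whereas rods are born later and build their outer segments last. Photoreceptors are also known for running glycolysis at a high rate, and many glycolytic genes are direct targets of the hypoxia-inducible factors (HIF), which accumulate when oxygen is scarce and drive genes such as Vegfa and Pdk1.

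Library totals at D22 lay between 14477807 and 16487005 estimated counts. Mitochondrially encoded genes took 10.2% of the counts in RWB replicate 1 and 8.26% in SSCd replicate 1, against 3.25% to 5.21% in the other 4 libraries, so the libraries numbered 1 stood apart in both groups. Levels are given as CPM (each count relative to its TMM-scaled library total), and fold changes as log2 of RWB over SSCd with a standard error (SE). The SE is the absolute log2 fold change divided by the square root of edgeR's quasi-likelihood F statistic. The spread behind it was estimated from all 24 libraries, not from the 6 alone. A gene is said to be higher or lower, or to have risen or fallen, in RWB by edgeR's quasi-likelihood test. The rule is a Benjamini-Hochberg adjusted p under 0.05 over all tested genes. By that rule 318 genes (1.89%) differed, 68 higher (0.405%) and 250 lower (1.49%) in RWB. The median log2 fold change was 1.30 among the higher genes, -1.48 among the lower genes and -0.0027 over all tested genes. In 316 of the 318 the libraries of the groups did not overlap, while among all tested genes 7.34% had all 3 RWB libraries above all 3 SSCd libraries and 10.4% had them all below. With a replicate block on the 6 libraries alone 571 genes were higher and 695 lower. Dropping RWB replicate 1 together with SSCd replicate 1 left 1 higher and 22 lower genes. Of 71 called genes followed one by one below, 62 lost their call in that way. The leave-outs given for single genes below drop 1 library at a time. Leaving out a library of RWB gave 143 calls (replicate 1) or 98 (replicate 2), leaving out one of SSCd gave 153 (replicate 1) or 185 (replicate 2), and 83 of the 318 kept their call whichever of the 6 libraries was left out. In bulk RNA, fewer cells of a type and less RNA per cell cannot be told apart, which holds for every difference below.

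**Figure D1:**
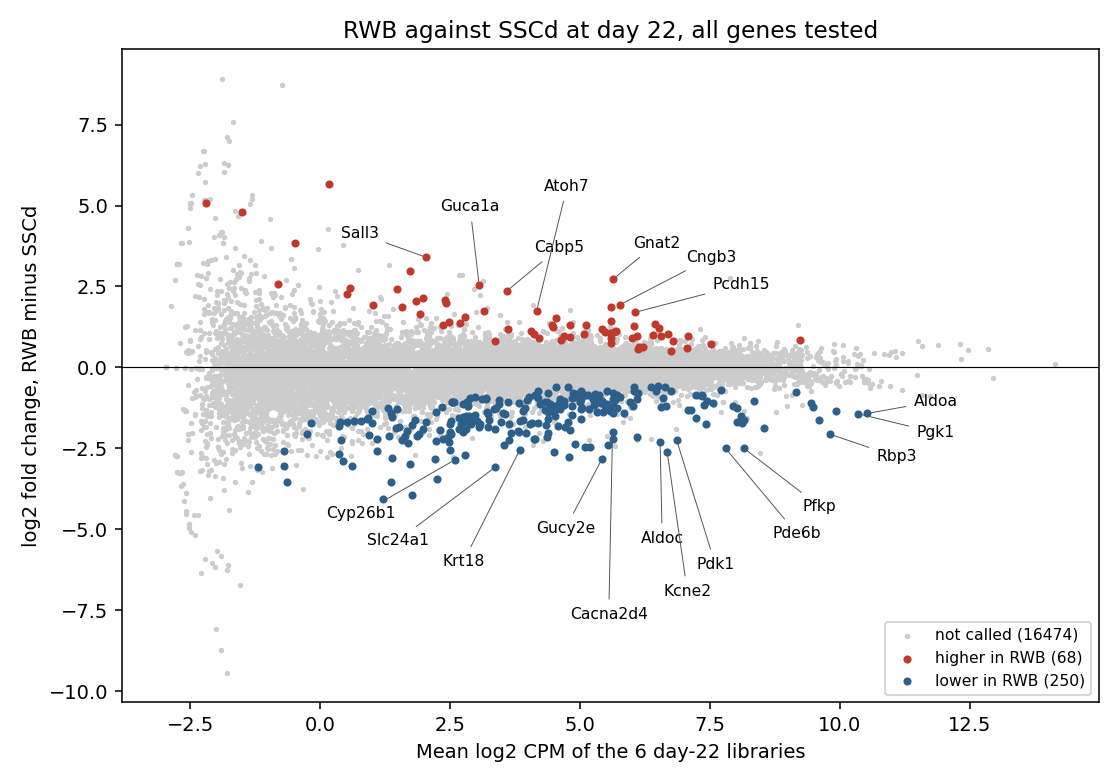
Log2 fold change of RWB over SSCd at D22 (y axis) against mean log2 CPM over the 6 libraries (x axis) for all 16792 tested genes. Red points are the 68 genes higher in RWB, blue points the 250 lower ones and grey points the rest, and fitted values of the least abundant genes depend on the prior count.

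The cone set of phototransduction genes was higher in RWB in part. This list and those below were chosen with earlier results of these data known. Shares of all genes beside their counts are therefore given for scale and are no test of enrichment. Of 14 listed cone genes, all tested, 4 rose in RWB (Gnat2, Cnga3, Cngb3 and Guca1a) and 1 fell (Kcne2), against 0.405% and 1.49% of all genes. The list's median log2 fold change was 1.14, and 13 of its 14 members were above 0. Of them 7 had all RWB libraries above all SSCd libraries, as 7.34% of all genes did. The list's summed level was 2110 to 3383 CPM in RWB and 1517 to 2420 CPM in SSCd, which overlap. With a replicate block fitted on the 6 libraries alone, 8 members were higher, where 3.86% of genes were higher and 4.69% lower.

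Gnat2, the cone transducin alpha subunit (chromosome 3, 108092789 to 108101432 on GRCm38), had 163, 175 and 78.7 CPM in RWB replicates 1, 2 and 3 and 27.8, 25.6 and 9.41 CPM in SSCd. The lowest RWB library was thus well above the highest SSCd library, and in both groups replicate 3 was the lowest. The log2 fold change was 2.73 ± 0.46 (SE, n = 3 each) with an edgeR adjusted p of 0.0038, and the call held whichever library was left out. Cnga3 and Cngb3 form the cyclic-nucleotide-gated channel of cones. Cngb3 had 138, 128 and 72.0 CPM in RWB and 39.3, 34.7 and 14.6 CPM in SSCd, again with replicate 3 lowest in both groups and no overlap. Its log2 fold change of 1.93 (edgeR adjusted p of 0.010, SE 0.39) missed the threshold without RWB replicate 1 or 2. Cnga3 was scarce, at 5.18, 5.91 and 7.73 CPM in RWB and 0.819, 0.913 and 1.78 CPM in SSCd, and its log2 fold change of 2.41 (edgeR adjusted p of 0.0055, SE 0.44) kept its call in every leave-out.

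Guca1a encodes a calcium-dependent activator of guanylate cyclase used by cones and rods. It had 16.5, 33.6 and 13.5 CPM in RWB and 5.44, 3.33 and 2.16 CPM in SSCd, a log2 fold change of 2.54 with an edgeR adjusted p of 0.013 that was lost without RWB replicate 2, SSCd replicate 2 or SSCd replicate 3. Sall3, a zinc finger factor known to act in cone gene expression, had even values in RWB: 13.3, 13.4 and 13.1 CPM in RWB and 0.819, 2.09 and 0.827 CPM in SSCd. Its log2 fold change was 3.40 (edgeR adjusted p of 0.00038, SE 0.42), or 4.02 without SSCd replicate 2. It was the 1 riser among 15 photoreceptor transcription factors and none fell, against 0.405% and 1.49% of all genes. With a replicate block in the 24-library fit 2 of the 15 were lower, among them Nrl, with 0.613% of all genes higher and 2.13% lower.

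Other cone genes pointed upward without passing. Opn1sw, the short-wavelength opsin, had 73.1, 166 and 89.4 CPM in RWB and 41.8, 71.9 and 24.4 CPM in SSCd, a log2 fold change of 1.25 (edgeR adjusted p of 0.22). Its highest value in each group was replicate 2, the groups were nearly touching, and with the 6-library replicate block it was called (edgeR adjusted p of 0.021). Pde6h, the cone phosphodiesterase inhibitory subunit, stood at 1.84 (edgeR adjusted p of 0.13, and 0.032 with that block), and the transducin subunit Gngt2 at 0.62 (0.66, and 0.016 with that block). The cone exchanger Slc24a2 stood at 1.04 (edgeR adjusted p of 0.45, and 0.029 with that block), Gnb3 at 0.50 (0.30) and the cone arrestin Arr3 at 0.71 (0.44). Pde6c, the catalytic phosphodiesterase subunit of cones, had 58.2, 37.5 and 40.6 CPM in RWB and 53.4, 55.0 and 17.0 CPM in SSCd, so the groups overlapped (log2 fold change 0.12, edgeR adjusted p of 0.96), and its sign turned without RWB replicate 1 (-0.09) or SSCd replicate 3 (-0.25).

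Kcne2, an accessory subunit of potassium channels, went the other way, with 60.0, 32.2 and 40.2 CPM in RWB against 347, 333 and 126 CPM in SSCd, a log2 fold change of -2.61 (edgeR adjusted p of 0.0038, SE 0.43). It is also known from choroid plexus epithelium. The ciliary margin and choroid plexus list had 0 of 19 members called in either direction by edgeR, and its summed level was 429 to 799 CPM in RWB and 436 to 583 CPM in SSCd. The part of such cells in the value of Kcne2 was not tested.

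**Figure D2:**
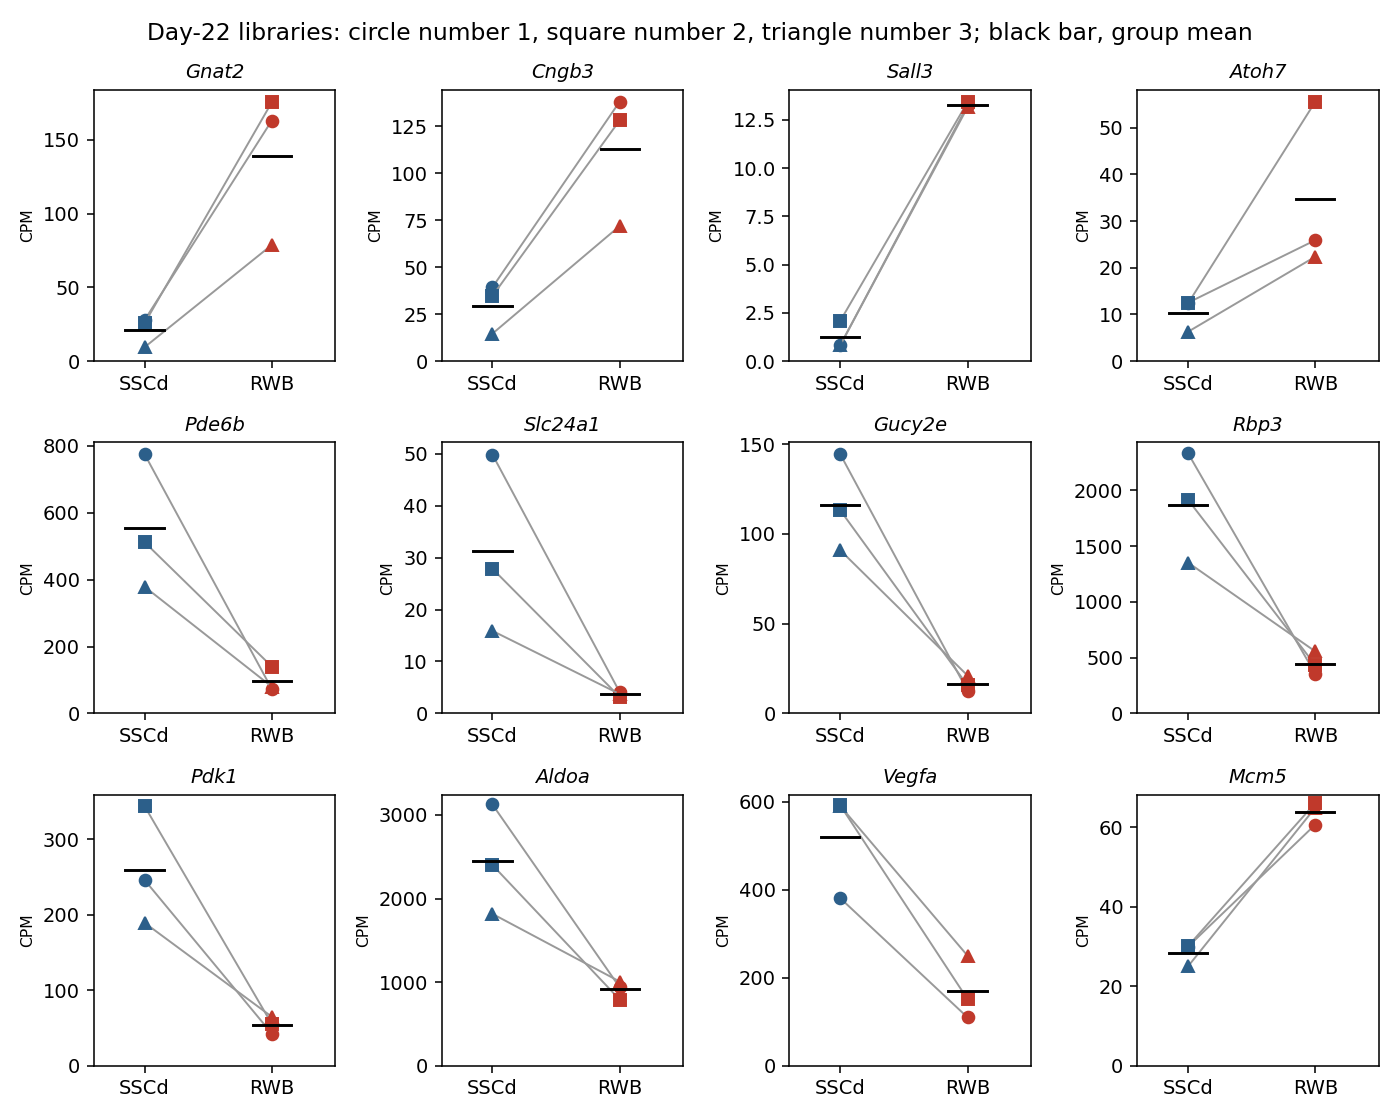
CPM of 12 genes in the 6 D22 libraries (y axis, linear from 0), SSCd on the left and RWB on the right of each panel. Lines join libraries with the same replicate number and black bars are group means. In all 12 panels the groups do not overlap, and Sall3 shows the tightest RWB group, at 13.1 to 13.4 CPM.

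Some genes of the rod list, not all of them used by rods alone, were lower in RWB. Of 18 listed rod phototransduction genes, all tested, 4 fell (Slc24a1, Gucy2e, Pde6b and Rgs9bp) and none rose, against 1.49% and 0.405% of all genes. The median log2 fold change was -0.93, and 16 of 18 members were below 0. In 6 all RWB libraries were below all SSCd libraries, as in 10.4% of all genes. The list's summed level was 2230, 2654 and 1630 CPM in RWB and 6354, 3429 and 1945 CPM in SSCd. SSCd replicate 1, the static library with the high mitochondrial share, had the most rod RNA of the 6, and SSCd replicate 3 lay inside the RWB range.

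Slc24a1, the sodium, calcium and potassium exchanger of rods (chromosome 9, 64922861 to 64951607), had 4.11, 3.20 and 3.74 CPM in RWB and 49.8, 27.9 and 15.9 CPM in SSCd. Its log2 fold change was -3.08 (edgeR adjusted p of 0.00066, SE 0.41). Pde6b, a catalytic subunit of the rod phosphodiesterase (chromosome 5, 108388391 to 108432397), had 73.0, 140.2 and 80.0 CPM in RWB and 775, 512 and 379 CPM in SSCd, a log2 fold change of -2.51 (edgeR adjusted p of 0.0038, SE 0.42). Gucy2e, the guanylate cyclase that rods and cones both use to restore cyclic GMP, had 12.6, 15.6 and 21.1 CPM in RWB and 144, 113 and 90.9 CPM in SSCd, with a log2 fold change of -2.82 (edgeR adjusted p of 0.00032, SE 0.32). In all 3 genes SSCd replicate 1 was the highest library and replicate 3 the lowest of its group, the groups were far apart, and no left-out library ended the call. Rgs9bp, which anchors the RGS9 protein that ends the light response, was less secure: 30.4, 23.8 and 35.4 CPM in RWB and 129, 78.9 and 25.6 CPM in SSCd, so that the groups overlapped. Its log2 fold change of -1.38 (edgeR adjusted p of 0.049) lost its call without any library except SSCd replicate 3, and in the replicate block of 24 libraries (edgeR adjusted p of 0.059) and of 6 (0.36).

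The rod transcription factor Nrl had 479, 298 and 311 CPM in RWB and 1452, 574 and 453 CPM in SSCd, a log2 fold change of -1.19 (edgeR adjusted p of 0.18, and 0.049 and 0.036 with the replicate block of 24 and 6 libraries). SSCd replicate 3 was below RWB replicate 1, and within each replicate number RWB was the lower, with log2 differences of -1.60, -0.945 and -0.54 for numbers 1, 2 and 3. Nr2e3, the nuclear receptor that works with Nrl, stood at -1.35 (edgeR adjusted p of 0.12).

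Other rod genes were not called. The transducin alpha subunit Gnat1 had 7.01, 7.39 and 3.74 CPM in RWB and 12.3, 7.18 and 4.96 CPM in SSCd. Sag, the rod arrestin, had 818, 1237 and 571 CPM in RWB and 1940, 1094 and 342 CPM in SSCd, and Crx, the factor shared by rods and cones, had 1340, 1122 and 873 CPM against 1839, 1345 and 803 CPM. In these 3 genes the groups overlapped and none was called (edgeR adjusted p of 0.81, 0.84 and 0.77). Cngb1 stood at -0.27 and Pde6g at -0.86, and without SSCd replicate 1 the values of Cngb1, Sag, Crx and Gngt1 were all above 0, at 0.65, 0.28, 0.042 and 0.061.

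Each of 9 cone genes was also set against its rod counterpart within the same library, as a description: 3 of these cone genes (Gnat2, Cnga3 and Cngb3) had risen and 2 of the rod genes (Pde6b and Slc24a1) had fallen, so the ratios partly restate those calls and support nothing beyond them. In 9 of 9 pairs the cone gene's log2 fold change was above that of the rod gene, by 1.08 (Arr3 and Sag) to 4.12 (Slc24a2 and Slc24a1), with a median of 2.63. In 8 of the 9 the log2 ratio of cone gene to rod gene was higher in every RWB library than in every SSCd library. Among single genes 7.34% had all RWB libraries above all SSCd libraries, and the share for ratios of other gene pairs was not computed. The exception was Arr3 over Sag, where SSCd replicate 3 at -6.84 lay among the RWB libraries at -7.11, -7.28 and -6.80. Within each replicate number the ratio was higher in RWB in all 9 pairs. The ratio of Gnat2 to Gnat1 was nearly constant within RWB, at 4.51, 4.55 and 4.35 on the log2 scale, against 1.17, 1.82 and 0.91 in SSCd, and that of Cngb3 to Cngb1 was 0.07, 0.14 and 0.06 against -2.65, -1.47 and -1.36. With 3 libraries against 3, a two-sided exact permutation test cannot go below 0.1, so no p is given for these ratios, and the pairs share libraries and cells and are no independent evidence of each other.

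**Figure D3:**
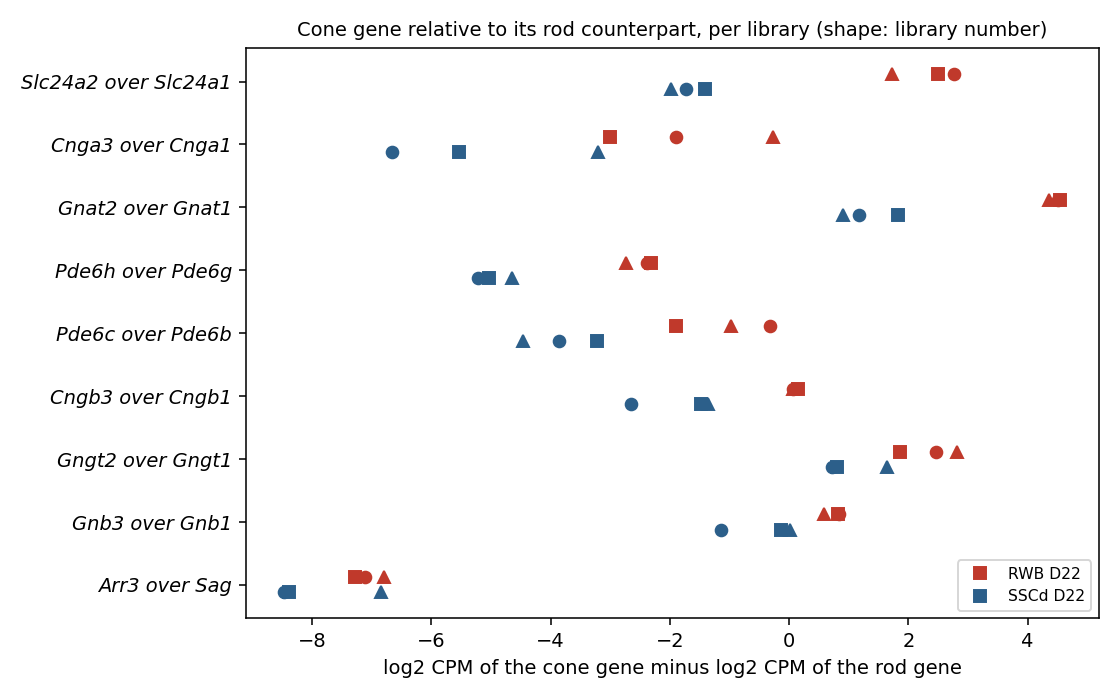
Log2 CPM of each cone gene minus log2 CPM of its rod counterpart (x axis) for 9 pairs in the 6 D22 libraries. Red is RWB, blue is SSCd, and circles, squares and triangles are replicates 1, 2 and 3. All RWB points lie to the right of all SSCd points in 8 pairs, and Arr3 over Sag is the exception.

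Per transcript length, as TPM (transcript abundance corrected for length and library total) computed from the transcript table, cone and rod subunits of the same protein could also be compared in level. Opn1sw was at 57.0, 171 and 109 TPM in RWB and at 33.1, 76.8 and 29.97 TPM in SSCd. Gnat2 exceeded Gnat1 in every library of both groups, at 120 to 226 TPM against 4.97 to 8.48 TPM in RWB and at 14.6 to 34.4 TPM against 6.01 to 10.4 TPM in SSCd. Gngt2 also exceeded Gngt1 in all 6 libraries. In the other direction Pde6b, Pde6g, Cnga1, Cngb1 and Sag exceeded their cone counterparts in all 6, with Sag at 584 to 1169 TPM in RWB against 5.88 to 10.6 TPM of Arr3. Slc24a2 was above Slc24a1 in every RWB library and below it in every SSCd library, and Gnb3 was above Gnb1 in all but SSCd replicate 1.

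Genes of the outer segment, the stacked disc organelle that holds the visual pigment, and of its connecting cilium were lower in RWB in part. Of 25 listed and tested genes 7 fell (1.49% of all genes did), none rose (0.405%), and the median log2 fold change was -0.83. In 11 all RWB libraries were below all SSCd libraries, as in 10.4% of all genes. The summed level was 4442, 4109 and 3499 CPM in RWB and 8896, 5869 and 4242 CPM in SSCd, which overlap at SSCd replicate 3. Slc4a7, a bicarbonate transporter, had 169, 164 and 158 CPM in RWB and 415, 395 and 303 CPM in SSCd (log2 fold change -1.18 ± 0.23, SE, edgeR adjusted p of 0.0072). Cdhr1, a cadherin of forming discs, had 570, 422 and 476 CPM against 1408, 945 and 775 CPM (-1.09), and Prph2, the disc rim protein, 123, 234 and 134 CPM against 851, 476 and 290 CPM (-1.72). Rdh8, an outer segment retinol dehydrogenase, was at 2.90, 6.65 and 5.73 CPM in RWB and 25.0, 12.5 and 17.5 CPM in SSCd (-1.84, edgeR adjusted p of 0.0035). The channel subunit Kcnv2 fell by 1.405 on the log2 scale, and Abca4, a retinoid transporter of disc rims, and Reep6 stood at -1.31 and -1.79, both called and named after their values were seen. Of the 7, Rdh8 alone kept its call in every leave-out. The calls of Cdhr1, Abca4, Reep6 and Slc4a7 needed RWB replicate 2, those of Prph2, Reep6 and Kcnv2 needed RWB replicate 1, and those of Prph2, Cdhr1, Abca4, Reep6 and Kcnv2 needed SSCd replicate 1. Prph2, Abca4 and Reep6 also needed RWB replicate 3, and Abca4 and Reep6 needed SSCd replicate 2.

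The fall of Abca4 was larger in its full-length transcript than in the gene sum. The transcript Abca4-201, protein coding and 7263 bases long, had 345, 511 and 575 estimated counts in RWB and 2131, 2549 and 2660 in SSCd, so it made up 45.2% ± 9.8 (SD, n = 3) of the gene's counts in RWB and 68.3% ± 3.5 in SSCd. Abca4-203, annotated as a retained-intron transcript of 1520 bases, had 312, 265 and 142 counts in RWB and 169, 118 and 106 in SSCd. Its share was 34.2%, 21.5% and 13.9% against 5.3%, 3.0% and 2.9%. These transcripts were picked after their values were seen, transcripts of a gene share reads, and no test was made on the shares.

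Around the outer segments lies a matrix that binds retinoids and proteoglycans. Of 14 listed genes of the matrix and of retinoid handling 13 were tested, and 3 fell (1.49% of all genes did) while none rose (0.405%). Rbp3, the retinoid carrier of that matrix, had 353, 432 and 556 CPM in RWB and 2332, 1915 and 1353 CPM in SSCd, and its log2 fold change of -2.06 (edgeR adjusted p of 0.0045, SE 0.36) kept its call in every leave-out. The proteoglycans Impg1 (-1.91, edgeR adjusted p of 0.047) and Impg2 (-1.27, 0.0072) fell too, and both lost the call without RWB replicate 1, RWB replicate 2 or SSCd replicate 1, Impg1 also without RWB replicate 3 or SSCd replicate 2. The list's summed level was 799, 935 and 1030.4 CPM in RWB against 3302, 2588 and 1913 CPM in SSCd. Without the 3 called genes it was 286, 323 and 278 CPM against 335, 303 and 258 CPM, which overlap, and the list median was -0.31.

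At the photoreceptor ribbon synapse 2 of 19 genes fell (1.49% of all genes did) and the median log2 fold change was -0.02, close to that of all genes. Cacna2d4, an accessory subunit of the calcium channel that triggers release there (chromosome 6, 119236526 to 119352407), had 20.9, 26.7 and 26.5 CPM in RWB and 114, 88.5 and 95.3 CPM in SSCd. Both groups were tight and far apart, with a log2 fold change of -2.005 ± 0.21 (SE) and an edgeR adjusted p of 0.00018, and leaving out any library kept the value between -2.06 and -1.89. Its coding transcript Cacna2d4-201 made up 38.7%, 54.4% and 65.0% of the gene's counts in RWB and 68.5%, 69.8% and 77.8% in SSCd. Slc17a7, the vesicular glutamate transporter, had 112, 94.2 and 75.2 CPM in RWB and 466, 229 and 131 CPM in SSCd (-1.55, edgeR adjusted p of 0.017). Without SSCd replicate 1 Slc17a7 stood at -0.95 and was not called, and its call also needed each of the 3 RWB libraries.

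The promoters of 3 of these photoreceptor genes are shown because each holds the letters TAATCC, the core recognised by the homeobox factor CRX, on 1 of its strands. The sequences are from RefSeq on GRCm38.p6, run 5' to 3' on the gene's own strand from 250 bases before to 10 after the annotated start, and capitals mark the match, here read as its reverse complement GGATTA. Gnat2 lies at chr3:108092816-108093075 (plus strand), Rbp3 at chr14:33953753-33954012 (plus strand) and Gucy2e at chr11:69237013-69237272 (minus strand).
Gnat2: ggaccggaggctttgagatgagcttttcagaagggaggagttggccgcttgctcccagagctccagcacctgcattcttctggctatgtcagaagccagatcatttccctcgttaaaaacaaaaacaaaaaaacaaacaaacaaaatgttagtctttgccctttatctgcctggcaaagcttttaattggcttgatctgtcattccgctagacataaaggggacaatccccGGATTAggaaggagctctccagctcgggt
Rbp3: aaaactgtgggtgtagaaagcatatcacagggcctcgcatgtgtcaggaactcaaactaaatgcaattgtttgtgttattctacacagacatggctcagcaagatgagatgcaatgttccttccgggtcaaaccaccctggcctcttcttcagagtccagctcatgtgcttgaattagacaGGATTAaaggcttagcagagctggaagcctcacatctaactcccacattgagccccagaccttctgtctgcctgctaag
Gucy2e: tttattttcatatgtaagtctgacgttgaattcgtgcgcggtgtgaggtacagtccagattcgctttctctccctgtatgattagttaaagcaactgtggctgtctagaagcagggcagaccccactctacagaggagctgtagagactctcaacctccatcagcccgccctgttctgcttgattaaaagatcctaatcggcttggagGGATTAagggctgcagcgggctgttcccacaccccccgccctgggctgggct
The matches begin 19, 69 and 42 bases before the start. Gnat2 rose and the other 2 fell, so the same letters stand before genes that moved in opposite directions. Windows of 300 bases ran from 250 before to 50 after a start. TAATCC was found on either strand in 24.1% of 83 promoters of tested genes of the rod, cone, disc, matrix and synapse lists. It was found in 3 of 14 promoters of those that fell and in 2 of 4 of those that rose. Among 15555 promoters of all tested genes the share was 5.97%. A match is a description of the letters, not of binding.

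Many glycolysis and HIF target genes were lower in RWB. Of 25 glycolysis and lactate genes, all tested, 10 fell (1.49% of all genes did). The median log2 fold change was -1.35, and 24 of 25 were below 0. In 16 all RWB libraries were below all SSCd libraries, as in 10.4% of all genes. The summed level was 12643, 12710 and 13264 CPM in RWB and 31166, 27966 and 20431 CPM in SSCd, so RWB was even across libraries and SSCd was not. The genes that fell lie along the pathway: Hk1, Gpi1, Pfkl, Pfkp, Aldoa, Aldoc, Tpi1, Pgk1 and Pgam1, and Pdk1, a kinase that inhibits pyruvate dehydrogenase. Hk1, Tpi1, Pfkl and Pgam1 were named after their values were seen. The count of 10 was 6 without RWB replicate 1 and 5 without RWB replicate 2, and 13 with the replicate block in the 24-library fit, where 2.13% of all genes were lower.

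Pdk1 (chromosome 2, 71873224 to 71903858) had 42.7, 55.3 and 64.9 CPM in RWB and 246, 344 and 189 CPM in SSCd, a log2 fold change of -2.26 (edgeR adjusted p of 0.0035, SE 0.37). Aldoc, an aldolase of neural tissue, had 35.9, 31.0 and 65.9 CPM against 315, 198 and 140.2 CPM (-2.30), and Aldoa, the general aldolase, 938, 791 and 1007 CPM against 3124, 2401 and 1817 CPM (-1.42). Gpi1, the isomerase at the top of the pathway, had 413, 358 and 565 CPM against 1469, 1277 and 1360 CPM (-1.62 ± 0.25, SE, edgeR adjusted p of 0.0019). In these 4 genes the groups were clear of each other and no left-out library ended the call, although Aldoc was not called with the 6-library block (edgeR adjusted p of 0.099). Pgk1, with 838, 757 and 824 CPM in RWB and 2668, 2324 and 1537 CPM in SSCd (-1.43, edgeR adjusted p of 0.0035), kept its call as well.

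Pfkp, the platelet-type phosphofructokinase, differed most between replicates, at 48.6, 123 and 243 CPM in RWB and 408, 776 and 1160 CPM in SSCd. Number 3 was the highest and number 1 the lowest in both groups, and within a number the log2 difference of RWB from SSCd was -3.07, -2.66 and -2.26. Its log2 fold change of -2.50 (edgeR adjusted p of 0.016) was -3.19 without RWB replicate 3 and was not called without RWB replicate 1, RWB replicate 2 or SSCd replicate 3. The liver-type enzyme Pfkl stood at -1.70 (edgeR adjusted p of 0.027), a call lost without RWB replicate 1 or 2 or SSCd replicate 1 or 2. The glucose transporter Slc2a1 had 220, 243 and 390.3 CPM in RWB and 874, 885 and 446 CPM in SSCd, with no overlap, a log2 fold change of -1.37 and an edgeR adjusted p of 0.068, or 0.043 with the 24-library replicate block. Several genes on this list have processed pseudogene copies, so the share of reads credited to Pgk1 and Pgam1 is uncertain.

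Of 25 HIF targets outside glycolysis, all tested, 5 fell (1.49% of all genes). All 25 were below 0, with a median log2 fold change of -1.22. In 13 all RWB libraries were below all SSCd libraries, as in 10.4% of all genes. Vegfa, the vascular growth factor, had 110.1, 152 and 250.4 CPM in RWB and 381, 592 and 591 CPM in SSCd (-1.61 ± 0.33, SE, edgeR adjusted p of 0.010). Loxl2, a matrix crosslinking enzyme, had 13.3, 16.5 and 34.2 CPM against 82.4, 137 and 118 CPM (-2.40, 0.0035), and Bnip3, which marks mitochondria for removal, 179, 210.4 and 209 CPM against 875, 876 and 454 CPM (-1.88, 0.028). The prolyl hydroxylases Egln1 (-1.32, edgeR adjusted p of 0.023) and Egln3 (-2.04, 0.032), which are themselves induced when HIF is active and tag it for breakdown, also fell. Loxl2 alone of the 5 kept its call in every leave-out. Vegfa, Bnip3, Egln1 and Egln3 each lost it without RWB replicate 1 or RWB replicate 2, and the last 3 also without SSCd replicate 1 or SSCd replicate 2, Bnip3 without RWB replicate 3 as well. The count of 5 therefore was 1 without RWB replicate 1 or 2, 2 without SSCd replicate 1 or 2, 9 without RWB replicate 3 and 11 without SSCd replicate 3.

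**Figure D4:**
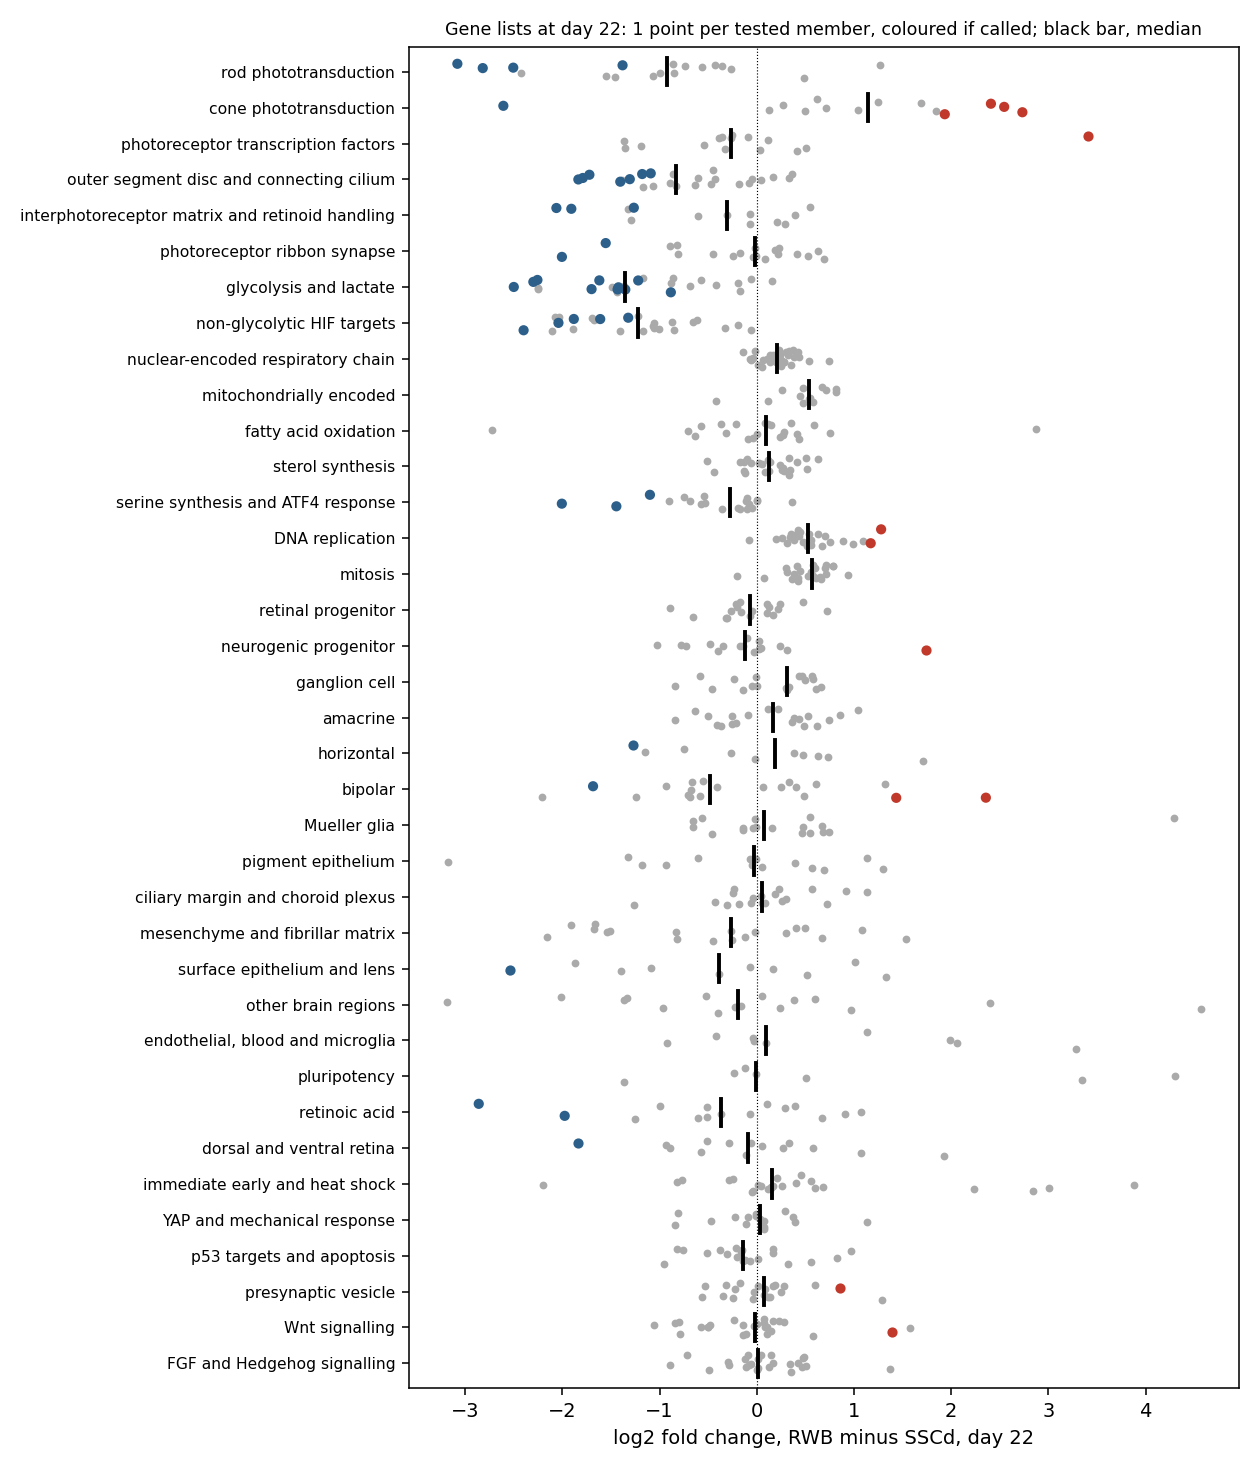
Log2 fold change of RWB over SSCd at D22 (x axis) for the tested members of 37 gene lists (rows), with 1 point per gene, red if higher and blue if lower by edgeR, and a black bar at each list's median. The glycolysis list, at a median of -1.35, and the other HIF targets, at -1.22, lie farthest to the left. The cone list, at 1.14, lies farthest to the right. All lists were chosen with earlier results of these data known.

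Promoters of 3 genes that fell are shown because each holds the core of the HIF response element, ACGTG or GCGTG, on either strand. They are from RefSeq on GRCm38.p6, 5' to 3' on the gene's strand and over the same span as those above, with matches in capitals. Pdk1, the first of its 2 promoters in the table, lies at chr2:71872974-71873233 (plus strand), Pgk1 at chrX:106186850-106187109 (plus strand) and Bnip3 at chr7:138909497-138909756 (minus strand).
Pdk1: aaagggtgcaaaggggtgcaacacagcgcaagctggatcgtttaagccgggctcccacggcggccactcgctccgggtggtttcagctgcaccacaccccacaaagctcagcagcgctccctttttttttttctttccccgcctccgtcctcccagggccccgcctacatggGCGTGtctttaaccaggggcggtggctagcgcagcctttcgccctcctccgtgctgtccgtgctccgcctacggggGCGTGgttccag
Pgk1: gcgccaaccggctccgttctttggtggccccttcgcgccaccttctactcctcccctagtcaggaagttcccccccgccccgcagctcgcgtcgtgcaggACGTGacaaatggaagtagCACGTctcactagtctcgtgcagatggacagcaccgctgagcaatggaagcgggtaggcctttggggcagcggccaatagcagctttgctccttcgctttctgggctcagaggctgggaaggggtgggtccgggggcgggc
Bnip3: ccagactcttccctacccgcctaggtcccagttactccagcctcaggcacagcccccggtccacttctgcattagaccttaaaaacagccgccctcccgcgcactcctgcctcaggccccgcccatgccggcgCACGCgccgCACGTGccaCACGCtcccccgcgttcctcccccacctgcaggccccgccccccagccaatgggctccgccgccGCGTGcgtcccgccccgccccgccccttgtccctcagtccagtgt
Pdk1 and Pgk1 each hold 2 matches and Bnip3 holds 5, of which 1 overlaps the one before it. Within 300-base windows the letters were present in 80.0% of 65 promoters of the glycolysis and HIF target lists, in 14 of 20 promoters of their members that fell, in 60.8% of 260 promoters of the 199 lower genes with an entry, and in 58.0% of all 15555 promoters. A 5-letter core is thus common, and among the genes that fell as a whole it was about as frequent as in any promoter.

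The other metabolic lists gave few calls. None of 34 nuclear-encoded respiratory chain genes, 13 mitochondrially encoded genes, 22 fatty acid oxidation genes or 25 sterol synthesis genes was called by edgeR, with medians of 0.21, 0.54, 0.10 and 0.12. Mitochondrially encoded RNA summed to 116467, 52833 and 41305 CPM in RWB and 94385, 34514 and 29934 CPM in SSCd, higher in RWB within each number but overlapping between groups. With the replicate block on the 6 libraries alone 8 of the 13 mitochondrially encoded and 6 of the 34 nuclear-encoded genes were higher, where 3.86% of all genes were. Of 20 genes of serine synthesis and the ATF4 stress response 3 fell, where 1.49% of all genes did. They were Nupr1 (4.50, 9.85 and 7.603 CPM in RWB, 27.0, 39.7 and 21.8 CPM in SSCd, -2.01), Trib3 (-1.44) and the lipoprotein receptor Vldlr (-1.10), with edgeR adjusted p of 0.0025, 0.0057 and 0.0051. Trib3 lost its call without RWB replicate 2, and the others kept theirs.

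Proliferation genes were mostly above 0 while few single genes passed. Of 26 DNA replication genes, all tested, 2 rose (0.405% of all genes) and none fell, 25 were above 0, the median log2 fold change was 0.53, and 16 had all RWB libraries above all SSCd libraries, as 7.34% of all genes did. Mcm5, part of the replicative helicase, had 60.7, 66.2 and 65.0 CPM in RWB and 30.02, 30.1 and 25.1 CPM in SSCd, tight in both groups, and a log2 fold change of 1.17 (edgeR adjusted p of 0.034, SE 0.28). Tyms, which makes thymidylate, had 128, 120.3 and 69.0 CPM against 56.3, 46.8 and 27.6 CPM (1.28, edgeR adjusted p of 0.038). The call of Mcm5 needed each of the 6 libraries and that of Tyms each but RWB replicate 3. Of 24 mitosis genes edgeR called 0, with a median of 0.57, 23 above 0 and 14 without overlap, and Mki67 was at 190, 326 and 324 CPM in RWB and 167, 276 and 172 CPM in SSCd (0.45, edgeR adjusted p of 0.70). With the replicate block on the 6 libraries 13 replication and 12 mitosis genes were higher, where 3.86% of all genes were, and in the 24-library block 4 and 2, where 0.613% were.

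Of 16 early neurogenic genes 1 rose, where 0.405% of all genes did. This was Atoh7, the factor that makes progenitors competent for the ganglion cell fate. It had 25.9, 55.6 and 22.4 CPM in RWB and 12.5, 12.4 and 6.30 CPM in SSCd (1.74 ± 0.41, SE, edgeR adjusted p of 0.029), and its call was lost without RWB replicate 2 or any SSCd library. Of the ganglion cell genes 0 of 18 were called by edgeR, the median was 0.31, and the ganglion cell factor Pou4f2 was at 0.762, 3.63 and 2.43 CPM in RWB and 0.968, 1.89 and 1.72 CPM in SSCd. None of 19 retinal progenitor, 20 amacrine or 18 Müller glia genes was called, with medians of -0.07, 0.17 and 0.07. The amacrine factor Tfap2b (0.38) and the glial retinoid carrier Rlbp1 (0.55, edgeR adjusted p of 0.34, and 0.037 with the 6-library block) are examples.

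Of 20 bipolar genes, Cabp5 and Lhx4 rose and Scgn fell, against 0.405% and 1.49% of all genes. Cabp5, a calcium-binding protein of bipolar cells, had 40.6, 25.3 and 18.7 CPM in RWB and 7.89, 4.96 and 3.69 CPM in SSCd. The order of the replicates was the same in both groups and the differences within numbers, 2.34, 2.32 and 2.30 on the log2 scale, were nearly identical (log2 fold change 2.36 ± 0.46, SE, edgeR adjusted p of 0.0083, lost without RWB replicate 1 or SSCd replicate 2). Lhx4, a homeobox factor of bipolar cells and cones, had 103, 80.9 and 62.7 CPM against 36.8, 37.2 and 17.3 CPM (1.43, edgeR adjusted p of 0.028, lost without any library except RWB replicate 3). Scgn, secretagogin of cone bipolar cells, was scarce at 0.610, 0.862 and 0.499 CPM against 2.76, 1.44 and 2.23 CPM (-1.68, edgeR adjusted p of 0.024, lost without any library except SSCd replicate 2). Onecut1, a horizontal cell factor, fell by 1.27 on the log2 scale. It was the 1 change among 10 horizontal cell genes, where 1.89% of all genes changed. Its call needed replicates 1 and 2 of RWB and 2 and 3 of SSCd.

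The genes with the largest rise among those of at least 3 mean log2 CPM were, after Gnat2, Guca1a, Cabp5 and Cngb3, Tmem158 (1.85), Atoh7, Klhl4 (1.74), Pcdh15 (1.70), Lrrc4 (1.52), Lhx4, Ampd2 (1.35) and Mapk4 (1.31). Pcdh15, a protocadherin of hair cells and photoreceptors, had 124, 139 and 106 CPM in RWB and 39.0, 50.9 and 23.6 CPM in SSCd (edgeR adjusted p of 0.0045). Lrrc4, a synaptic adhesion protein, had 42.8, 39.6 and 37.8 CPM against 11.5, 20.4 and 10.0 CPM (0.0054). Pcdh15, Lrrc4 and Mapk4 kept their calls in every leave-out. Tmem158 needed RWB replicate 1 and SSCd replicate 1, Ampd2 RWB replicate 2 and SSCd replicate 1, and Klhl4 every library except RWB replicate 3.

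On the lower side the same rule gave, beside genes described above, Rgs11 (-2.76), a regulator of G protein signalling known from bipolar dendrites, Glb1l2 (-2.61), Krt18 (-2.54), Ndufa4l2 (-2.47), Plekha2 (-2.46) and Ptges (-2.39), which makes prostaglandin E2. Rgs11 had 5.03, 9.72 and 19.1 CPM in RWB and 64.8, 77.9 and 87.2 CPM in SSCd (edgeR adjusted p of 0.0038), and -3.37 without RWB replicate 3. Ndufa4l2, a HIF-induced relative of a respiratory chain subunit, had 10.2, 14.5 and 22.6 CPM against 86.9, 98.3 and 78.3 CPM (0.0077, lost without RWB replicate 1 or 2). Ptges and Plekha2 lost their calls without RWB replicate 2, and without RWB replicate 3 Ptges stood at -2.98.

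Krt18, a keratin of simple epithelia, had 4.11, 2.58 and 13.6 CPM in RWB and 56.5, 30.5 and 31.8 CPM in SSCd (-2.54, edgeR adjusted p of 0.0059, and -3.57 without RWB replicate 3). It was the 1 called gene among 11 tested of a surface epithelium and lens list of 21, where 1.89% of all genes were called. With the replicate block 2 of the 11 were lower in the 24-library fit, where 2.13% of all genes were. In the 6-library fit 0 of 9 tested were lower, where 4.69% of all genes were. Of the list, Krt14, Trp63 and Foxe3 had no counts in any of the 6 libraries. The summed level of that list was 14.6 to 34.7 CPM in RWB and 48.5 to 81.0 CPM in SSCd, but without Krt18 it was 14.9, 12.1 and 21.0 CPM in RWB and 24.6, 18.0 and 20.4 CPM in SSCd, which overlap. The part of epithelial cells in other differences was not tested. Pigment epithelium markers summed to 103 to 572 CPM in RWB and 163 to 377 CPM in SSCd with none of 14 tested called and Rpe65 at 0. None of 19 mesenchyme, 16 other-brain, 9 endothelial, blood and microglia, or 7 pluripotency genes tested was called, and the haemoglobin genes Hbb-bt, Hba-a1 and Hbb-bs were at 0.

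Retinoic acid handling and axial patterning gave 3 lower genes, 2 of 15 and 1 of 14 tested, where 1.49% of all genes were lower. Cyp26b1, which degrades retinoic acid, had 1.98, 1.78 and 2.87 CPM in RWB and 12.7, 13.6 and 22.1 CPM in SSCd, a log2 fold change of -2.86 (edgeR adjusted p of 0.0032, SE 0.46) that held in every leave-out. Dhrs3, which turns retinaldehyde back into retinol, had 6.10, 5.48 and 9.78 CPM against 31.2, 21.4 and 31.6 CPM (-1.98, edgeR adjusted p of 0.0097, lost without RWB replicate 1 or 2). In 7 of the 15 tested genes of that list all RWB libraries were below all SSCd libraries, against 10.4% of all genes, and in none were they all above. Tbx5, a dorsal retina factor, had 5.56, 5.54 and 2.68 CPM against 11.9, 11.7 and 25.7 CPM (-1.84, edgeR adjusted p of 0.017), a call that needed every RWB library and SSCd replicate 3, and it was the 1 change among 14 dorsal and ventral genes. Cplx2, a presynaptic complexin (0.86, edgeR adjusted p of 0.049), and Frzb, a secreted Wnt inhibitor (1.39, 0.011), were the only risers among 21 presynaptic and 26 tested Wnt genes. Of all genes 0.405% rose. Cplx2 and Frzb lost the call without RWB replicate 2, SSCd replicate 2 or SSCd replicate 3, Cplx2 also without either library numbered 1. The lists of immediate early and heat shock, mechanical response, p53, and FGF and Hedgehog genes had no call.

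Libraries of other days and cultures were then read for the same genes. At D18, with 2 RWB and 3 SSCd libraries and none shared with D22, 82 genes differed (0.488%), 12 higher (0.0715%) and 70 lower (0.417%) in RWB, but 0 were called when replicate 2 of RWB was left out, 20 when its replicate 1 was, and 17 and 29 when replicates 1 and 3 of SSCd were. With 1 RWB library left out the other is alone at D18, and it is then assumed to vary like the libraries of the other groups. Of the 250 genes lower at D22, 241 (96.4%) were below 0 at D18, where 50.6% of all genes were, and 46 were called lower, which is 18.4% of the 250 and 65.7% of the 70. Of the 68 higher genes 59 (86.8%) were above 0 and 3 were called higher, which is 4.41% of the 68 and 25.0% of the 12. Replicate numbers recur across days, and whether same-numbered libraries came from the same experiment is not stated.

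Values of single genes at D18 are given next, with the test of a change between days after them. Pdk1 was at 45.0 and 40.6 CPM in RWB and 271, 236 and 196 CPM in SSCd at D18, a gap close to that at D22 (difference of the log2 fold changes 0.19). Gucy2e already stood at -2.77 and Cacna2d4 at -2.18 at D18 (edgeR adjusted p of 0.0040 and 0.00045). Gnat2 was not called at D18: it had 84.0 and 49.7 CPM in RWB and 62.5, 54.7 and 51.1 CPM in SSCd at D18 (0.25, edgeR adjusted p of 0.96), and by D22 SSCd was lower in every library than at D18. Sall3 likewise stood at 0.13 at D18. Other cone genes were below 0 then: Pde6h stood at -1.81, Arr3 at -1.21 and Opn1sw at -1.09, and the cone list had a D18 median of -0.59 with 1 member called lower and none higher. The change of the culture difference from D18 to D22 was 2.48 for Gnat2 and 3.27 for Sall3 (edgeR adjusted p of 1.0 and 0.20). That test called 0 of 16792 genes in edgeR, with 525 at an unadjusted p under 0.05, 0 in limma-voom and 12 in DESeq2, so no gene is shown by edgeR to differ between days in its response.

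Along the later time points of the series Gnat2 had 228, 83.3 and 86.6 CPM in RWB at D25, with replicate 1 far above the others, and averaged 8.34 CPM in SSCd at D28. Sall3 averaged 12.7 and 1.37 CPM in those groups. Pde6b averaged 216 CPM in RWB at D25 and 1087 CPM in SSCd at D28, and in intact static organoids (SSCi) 471 CPM at D25 and 1192 CPM at D32. Pdk1 stayed at 41.8 and 55.3 CPM in 2 RWB libraries at D25 while the other, replicate 2, was at 157 CPM. From D18 to D32 in SSCi, which uses none of the D22 libraries, 16.2% of all tested genes rose and 20.5% fell. Of the 250 genes lower in RWB at D22, 125 rose and 15.6% fell over that time, and of the 68 higher ones 30.9% rose and 22.1% fell. Without SSCi D18 replicate 1 the rising shares were 42.8% of the 250, 26.5% of the 68 and 12.1% of all genes. Age and medium cannot be told apart in SSCi, where serum was added from D26.

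**Figure D5:**
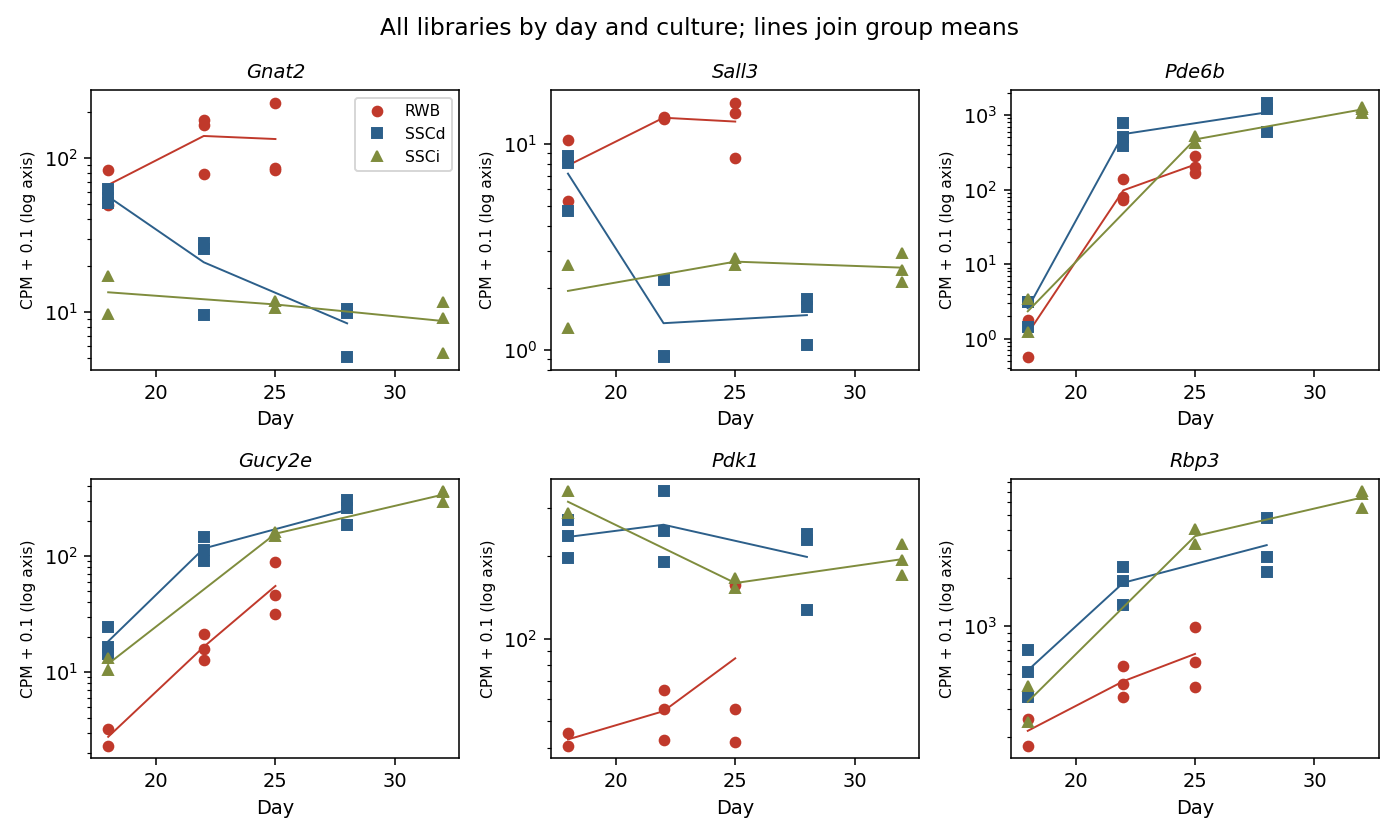
CPM plus 0.1 (y axis, log scale) of 6 genes in all 24 libraries by day (x axis), with circles for RWB, squares for SSCd, triangles for SSCi and lines through group means. Gnat2 and Sall3 overlap between RWB and SSCd at D18 and no longer do at D22, while Pdk1 is already lower in RWB at D18.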

How the data were processed

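RNA from 24 libraries was sequenced as paired-end reads with a stranded mRNA kit, per the labels' protocols. The build GRCm38.p5 and the tools limma 3.32.2, edgeR 3.13.9 and kallisto 0.42.5 are listed, with no role or order, in the submitters' processing notes. The authors deposited a gene table of estimated counts, rounded here for testing, and a transcript table of estimated counts, used for TPM and transcript shares. How the gene values were made from the transcripts is not given in the sources used here. They are not plain sums (transcript sum over gene value: 0.984 at the median, 0.812 and 1.16 at the ends of the central range), so the sums were tried as an alternative chosen after seeing the data. A table of normalized values was not used. Symbols were found for 33331 of 33846 genes.

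edgeR 4.0.16 (R 4.3.3) was fitted to all 24 libraries with 9 group means, filterByExpr, TMM and the robust quasi-likelihood test. Alternatives were DESeq2 1.42.0, limma-voom (limma 3.58.1), other size factors, no filter, the compared libraries alone, a replicate block and leaving out each library. The groups, the gene lists and the genes of interest were chosen with earlier results of these data known. Named genes are up to 12 called genes per direction with the largest log2 fold change, no overlap between groups and an average log2 CPM not under 3, a panel of marker genes, rod and cone pairs, and up to 5 called members of each list per direction. Some genes this rule covers are not reported here. Genes outside this rule are said to be chosen after their values were seen. Positions are from GENCODE on GRCm38, and promoters from RefSeq on GRCm38.p6.

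Within D22 the residuals of same-numbered RWB and SSCd libraries correlated at 0.43, 0.20 and 0.43 for numbers 1, 2 and 3. All were over the minimum of 0.1, and no pair of different numbers was. Residuals from a group mean cancel out within the group, so positive values at the same numbers push those between different numbers down. The latter are therefore no separate evidence of pairing. Same-numbered libraries were treated as pairs in the replicate-block fits and in the differences within a number. What such libraries have in common is not given in the labels. The main D22 test used group means without that block. Calls and adjusted p-values given without mention of a block are therefore unpaired. Where replicates did not come from separate cultures, p-values measure only the spread between these samples. On simulated counts with 200 changed genes the D22 test, run on 16597 genes, recovered 37% of 2-fold and 91% of 4-fold changes. Of its 131 calls 3 were false. Those counts were drawn independently for each library, with no shared effect of a replicate number, so the rates may not hold for real libraries. Each D22 group mean rests on 3 libraries, and library totals were alike. The spread behind the p-values was estimated over all 24 libraries and their 9 groups, other days and cultures included.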

Additional observations from a re-analysis of the deposited data

How the results depend on the processing

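The 318 genes called at D22 became 650 with DESeq2, 125 with the 6 libraries fitted alone, and 23 (1 higher, 22 lower) without both libraries numbered 1. Leaving out 1 library at a time gave 98 to 310. With the replicate block the count was 460 (103 higher, 357 lower, 314 of them among the 318) in the 24-library fit and 1266 (571 higher, 695 lower, 279 among the 318) in the 6-library fit. Limma-voom gave 276, other size factors 315, no filter 255 and the transcript sums 336. At D18 the 82 calls became 262 with DESeq2, 54 with limma-voom, 136 with the replicate block in the 24-library fit and 0 with the 5 libraries alone, and leave-outs gave 0 to 73. The test of the change between days called 0 genes in edgeR and 12 in DESeq2. The 6166 calls of SSCi D32 against D18 ranged from 4379 to 5244 over the leave-outs. Of the 95 genes followed one by one 71 were called, and 30 of these kept the call in all 6 leave-outs. Without both libraries numbered 1, 9 of the 71 kept the call and 62 lost it. Signs turned for genes that were not called. Over the leave-outs Pde6c ranged from -0.25 to 0.38 (-0.09 without RWB replicate 1), Gngt1 from -1.28 to 0.061, Cngb1 from -0.70 to 0.65, Sag from -0.79 to 0.28 and Crx from -0.52 to 0.042. The upper ends of the last 4 are without SSCd replicate 1, and -0.25 is without SSCd replicate 3. Without both libraries numbered 1, Pde6g was at 0.051, Cngb1 at 0.48 and Sag at 0.35. Cngb1 was at 0.085 in limma-voom and 0.066 with the replicate block on 6 libraries. The cause of these changes was not tested.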

Other observations

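Values of 5 genes linked to the circadian clock are given here, all chosen after their values were seen and from no fixed list. Dbp, a clock output factor, had 16.9, 15.0 and 13.7 CPM in RWB and 40.4, 36.1 and 27.0 CPM in SSCd at D22 (log2 fold change -1.18, edgeR adjusted p of 0.00097), and Per3 19.1, 24.4 and 26.9 CPM against 39.5, 66.9 and 64.1 CPM (-1.27, 0.0055). Both genes kept their calls in every leave-out and were lower at D18 too, Dbp at -1.48 and Per3 at -1.34 (edgeR adjusted p of 0.0024 and 0.028). Per2 fell by 1.39 on the log2 scale at D22 (edgeR adjusted p of 0.037, lost without RWB replicates 1 or 2 or SSCd replicates 2 or 3), while Per1 and Tef were at -0.52 and -0.53 and were not called (0.61 and 0.17). The hour of harvest is not in the labels, and its part was not tested.

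The melatonin receptor gene Mtnr1a had 118, 91 and 57 estimated counts in the RWB libraries and 0, 3 and 2 in the SSCd libraries (edgeR adjusted p of 0.0027), and it too was picked after its values were seen. The histocompatibility genes H2-Ab1 and H2-K1, also chosen after their values were seen, were lower in RWB. H2-Ab1 had 3.28, 1.17 and 3.99 CPM against 21.8, 12.8 and 20.5 CPM (-2.71, edgeR adjusted p of 0.0038), and H2-K1 6.25, 6.77 and 17.9 CPM against 40.2, 49.6 and 47.8 CPM (-2.15, 0.0054, lost without RWB replicate 2). Reads of H2-K1 can be shared with near-identical copies, so its level is uncertain. The endothelial, blood and microglia markers summed to 153, 241 and 304 CPM in RWB and 154, 262 and 296 CPM in SSCd.

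Cox4i2, a subunit form of cytochrome oxidase known to be induced at low oxygen, had 23.6, 18.5 and 26.9 CPM in RWB and 109, 112 and 99.5 CPM in SSCd (-2.22, edgeR adjusted p of 0.0067, lost without RWB replicate 2). Mgarp, a mitochondrial protein, had 176, 173 and 145 CPM against 571, 447 and 371 CPM (-1.49, edgeR adjusted p of 0.00038) and kept its call in every leave-out. Both genes were chosen after their values were seen.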
